A study of Mus musculus with 4 samples.

Results

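Naive CD4+ T cells were compared with the same kind of cells after 3 h under conditions that induce regulatory T cells, a culture called induced Treg (iTreg), in wild-type (WT) mice. The comparison rests on 2 single-colour Agilent mouse expression arrays, 1 for WT naive T and 1 for WT iTreg 3 h, out of 4 arrays in the series. Members are all genes with a current symbol whose probe was well above local background on at least 1 of these 2 arrays, which gave 18291 of the 24866 named genes on the array. The other 2 arrays hold Nr4a triple knockout cells and were left aside. All 4 arrays were on 1 slide and in 1 scan, as the file headers give it.

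Both groups were wild type in genotype and carried no engineered allele that the labels name. The gates that the labels give for sorting the naive cells include CD4+, CD25low, CD44low and Foxp3-. The cells came from spleen and lymph nodes of bone marrow chimeras, in which irradiated Rag2-/- hosts, which make no T or B cells of their own, had been given WT marrow. The 3 h group received plate-coated anti-CD3 at 2 μg/ml and anti-CD28 at 0.5 μg/ml, IL-2 at 10 ng/ml, human TGF-β1 and antibodies to IFN-γ and IL-4 at 1 μg/ml each, in medium with 10% serum and 55 μM 2-mercaptoethanol. The labels give TGF-β1 as 0.2 or 0.5 ng/ml and do not say which dose this array had. The age of the mice and the number pooled are not given in the labels. Stimulation, cytokines, medium and 3 h of culture all differ between the groups, so their parts in any difference cannot be told apart.

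A T cell receptor (TCR) signal reaches the nucleus through calcineurin and NFAT, through NF-kB and through the Ras and MAP kinase branch that acts on AP-1. Within hours these factors switch on immediate early genes, receptors and cytokines, and the cell leaves quiescence by growing before it divides, so that nutrient uptake, ribosome assembly and protein synthesis come ahead of DNA replication. The quiescent state itself is held by factors such as Klf2 and Foxo1, which also keep the homing receptors and the IL-7 receptor of a recirculating naive cell switched on. How far each of these programmes had moved at 3 h is the question the 2 arrays address.

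Each level below is the log2 of a probe's processed intensity over the 75th percentile of the intensities on its own array, so that a level of 0 is that percentile and a difference of 1 is 2-fold. With 1 array per group no difference could be tested, and "rose" and "fell" mean only a change past 2-fold. Where a probe was repeated on 5 or more spots, the SD between its spots had a median of 0.045 in naive T and 0.050 at 3 h. This makes 0.067 for a difference. Dim probes spread more, with medians of 0.183 and 0.213 below a level of 0, against 0.044 and 0.048 from that level up. These spreads cover the array alone and not mice or cultures. The well-above-background probes made up 64.9% of all probes in naive T and 65.2% at 3 h, and no spot was saturated.

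The labelled cell type was checked first. All 12 CD4 T cell markers were well above background on both arrays, among them Cd3e at 6.13 in naive T and 5.63 at 3 h, and Cd4 at 4.63 and 3.78. Cd69, an early activation marker, went from 2.49 to 5.94, and Tfrc, the transferrin receptor of growing cells, from 0.61 to 4.50. Many markers of other cells were detected too. Well above background on at least 1 array were 12 of 12 B cell and MHC class II markers, 9 of 10 CD8 T and NK markers, 13 of 15 myeloid markers and 6 of 10 erythroid and platelet markers on the array. As multiples of the 75th percentile intensity, the B cell and MHC class II markers summed to 14.9 in naive T and 11.9 at 3 h, the CD8 T and NK markers to 8.82 and 6.04, and the erythroid and platelet markers to 2.66 and 1.56. The myeloid markers summed to 420 and 326, most of it from a very bright Itgam probe (8.48 and 8.17), and the CD4 T cell markers to 234 and 183. Such sums follow each list between the arrays and do not rank cell types, since probes differ in brightness. Not well above background on either array were Ncr1 of NK cells, Lyz1 and Adgre1 of myeloid cells, Hbb-b1 of red cells, and Ppbp, Pf4 and Gp9 of platelets. The part of other cells in the results was not tested.

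In all, 1884 of 18205 genes with a measurable change (10.3%) rose and 2201 (12.1%) fell. Every count for a gene list below is to be read beside these shares. The median change over all genes was -0.12, so the typical gene sat slightly lower at 3 h on this scale. Scaling to each array's median moved it to 0.07 and turned the balance of calls, with 59.9% of called genes higher in place of 46.1%. Changes past 8-fold were found for 113 genes that rose and 170 that fell. For 1999 genes the change is only a bound, because 1 of the arrays did not show the probe well above background. On that array a value below its dimmest well-above-background signal was raised to that signal, and the fold is given as at least that much.

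**Figure D1:**
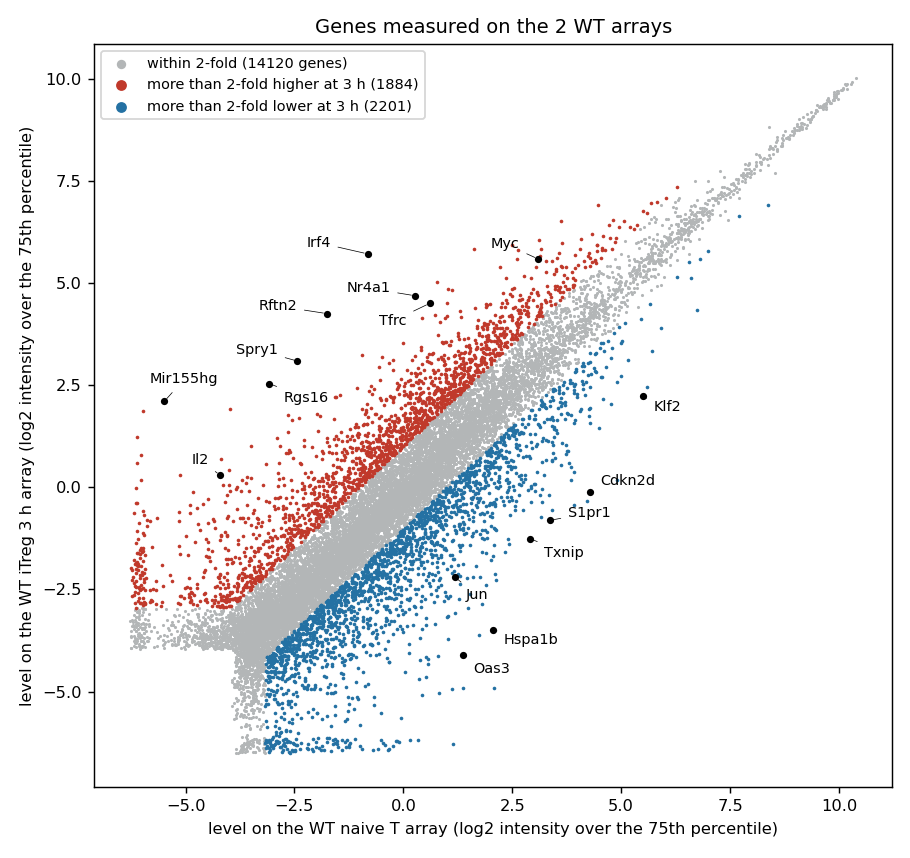
Level of each gene in WT naive T (horizontal) against WT iTreg 3 h (vertical), both as log2 intensity over the array's 75th percentile, 1 array each. Levels are drawn as measured, also where a change is only a bound. Red points (1884 genes) rose and blue points (2201) fell past 2-fold. Among the labelled genes, Mir155hg and Irf4 stand far above the diagonal, and Hspa1b and Oas3 lie far below it.

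The largest rise among genes measured well above background on both arrays was that of Irf4, a transcription factor whose amount follows TCR signal strength. Irf4 was at -0.82 in naive T and 5.71 at 3 h, a 92.4-fold rise read by a probe at chr13:30856460-30856519 on mm9, and its second probe rose by 6.65. Spry1, an inhibitor of receptor signalling to Ras, went from -2.43 to 3.09, and Rgs16, which shuts off G protein signalling from chemokine receptors, from -3.08 to 2.54. Rftn2, a lipid raft protein, went from -1.75 to 4.25 on its brightest probe, while its other probe was lower at 3 h by just under 2-fold. Map2k3, the kinase that activates p38, rose from 1.62 to 5.84, and its other 3 probes rose by between 1.86 and 4.40. Further genes in this top class were Yif1a, Tnfsf11, Bcl2a1d, Ccr8, Tnfrsf9, Sult5a1, Bcl2a1c, Olfr1507, Gfod1, Erich2, Fosl2, Ehd1 and Gadd45b, all between 3.77 and 4.51. Sult5a1 had 2 other probes, at -0.95 and -0.50, and its rise rests on 1 probe.

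Some genes came up from below detection. Mir155hg, the host transcript of microRNA miR-155, was at 2.10 at 3 h and not well above background in naive T, at least 66.6-fold higher. Its probe reads the host RNA at chr16:84715433-84715492 on mm9 and not the mature miRNA. The RefSeq sequence of that miRNA is shown because this locus gave the largest bound among rises. Its target-pairing seed of bases 2 to 8 is in capitals.
mmu-miR-155-5p: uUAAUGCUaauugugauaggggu
Il2, the growth factor that activated T cells secrete, reached 0.30 from below detection, with bounds of 4.25 and 4.34 on its 2 probes. Other large bounds were those of Akr1c18, Ntn5, Olfr972, Saxo2, Mfsd2a, Ngef, Srbd1 and Plcb1. Among these, second probes of Ntn5, Saxo2 and Plcb1 changed by -0.06, -0.91 and 0.09, and those of Srbd1 by 0.47 and -0.57, so the bound rests on 1 probe for each of these 4.

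The 3 Nr4a nuclear receptors, immediate early genes of TCR signalling, all rose. Nr4a1 went from 0.27 to 4.69, a 21.4-fold rise. Nr4a2 went from -0.54 to 2.19 and Nr4a3 from 0.89 to 2.19 on their brightest probes. Dimmer probes of the same genes gave more, with a rise of 3.89 for the second probe of Nr4a2 and of 2.73 and 5.48 for those of Nr4a3. The probe with the 5.48 rise started at -2.77 in naive T, the lowest start of the 3 Nr4a3 probes.

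Among 19 immediate early factors, 10 rose and 4 fell, with a median of 1.04. The rise came in Fosl2 (1.01 to 4.84), Atf3 (-3.35 to -0.26), Mafg (1.30 to 4.32), Egr2 (3.11 to 6.06), Egr3 and Egr1, with Fosl1 at least 2.50 higher. Egr2 and Egr3 are also brakes of the T cell response. The classical AP-1 pair went the other way, and Fos fell from 0.86 to -1.70 and Jun from 1.19 to -2.20. Fosb fell by 1.12 and Jund by 1.32, while Junb was at 7.84 and 7.48.

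Among 24 heat shock and chaperone genes 8 rose and 3 fell, with a median of 0.62. These were 33.3% and 12.5%, beside 10.3% and 12.1% of all genes. Hspa1b, an inducible Hsp70 chaperone, was at 2.06 in naive T and -3.49 at 3 h, the largest fall among genes measured on both arrays. Hspa1a, its near-identical neighbour, which can share its probe signal, fell from 1.76 to -2.20. The third that fell was Dnajb4, by 1.48, while Hsph1 rose by 1.41 and Dnajb1 and Bag3 changed by -0.41 and 0.29. Outside this list, Socs3, a brake on IL-6 receptor signalling, fell from 1.80 to -2.85, and Klf4 from -0.14 to -3.46, while the stress-induced Gadd45b rose by 3.77.

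NF-kB subunits, inhibitors and targets had 9 of 16 genes higher, 1 lower (Bcl3, by 1.20) and a median of 1.19. Of the subunits, Rel went from 1.90 to 4.42, Nfkb1 from -0.12 to 2.45 and Nfkb2 from -0.30 to 1.49, while Rela changed by 0.45. Relb changed by 0.58 on its brightest probe, while its other 2 probes rose by 2.33 and 1.92. Inhibitors and feedback genes rose beside them, with Nfkbid, a nuclear IkB protein, from 1.12 to 4.84 and Tnfaip3, the A20 deubiquitinase, from 0.52 to 2.01. Malt1, which carries the signal from the TCR to NF-kB, rose by 2.05. Of 13 genes in this list with a RefSeq promoter window, 7 (53.8%) held an NF-kB consensus match on either strand, against 4.35% of all 27025 genes with a window. The list holds NF-kB targets by design, so this share describes the list and tests nothing about the change at 3 h. The windows run from 250 bases before to 50 after the annotated start on GRCm38.p6, and for genes with several the first listed was taken. The 250 bases before the start of Rel, on the minus strand at chr11:23770970-23771219 of GRCm38.p6, are shown with the overlapping NF-kB matches in capitals, as the case in which a subunit's own promoter holds them.
Rel: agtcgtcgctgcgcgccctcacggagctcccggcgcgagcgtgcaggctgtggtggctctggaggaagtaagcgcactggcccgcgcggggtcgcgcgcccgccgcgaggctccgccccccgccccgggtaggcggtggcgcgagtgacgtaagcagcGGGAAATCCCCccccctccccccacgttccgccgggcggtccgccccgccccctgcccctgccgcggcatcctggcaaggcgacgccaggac

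Of 24 genes of the TCR and its proximal signalling, 4 rose and 4 fell, 16.7% each way beside 10.3% and 12.1% of all genes, with a median of -0.46. These shares lie near the background, and the values below describe single genes. The kinase Zap70 went from 2.98 to 4.86, and its 2 probes rose by 1.89 and 1.94. The kinase Fyn rose by 1.17, and the adaptor Lcp2 (SLP-76) by 1.08 on its brightest probe, against 0.85 and 0.16 on the others. Txk, a Tec kinase, fell from 1.92 to -1.09, Themis from 1.88 to -1.05 and Cd247, the zeta chain, from 2.65 to 1.33. The receptor chains Cd3d, Cd3e and Cd3g changed by -0.46, -0.49 and -0.90, within 2-fold.

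Of 21 brakes on TCR signalling, 3 rose and 6 fell, 14.3% and 28.6% beside 10.3% and 12.1% of all genes. Their median was -0.62. Sla, Cblb and Ptpn22 rose by between 1.59 and 1.95, of which Cblb is a ubiquitin ligase and Ptpn22 a phosphatase acting on Lck and Zap70. Rasa3, a Ras GTPase activator, fell from 3.75 to 0.89 and Dgka, the diacylglycerol kinase linked to anergy, from 4.26 to 1.92. Of 15 dual-specificity phosphatase and Sprouty genes, 7 rose, 46.7% beside 10.3% of all genes, and 2 fell, with a median of 0.50. Dusp4 went from -0.49 to 3.18 and Dusp5 from -0.55 to 2.95, both nuclear ERK phosphatases. Dusp6 and Dusp1 changed by 0.50 and 0.16, and Dusp7 fell by 1.16. Dusp10, which acts on JNK and p38, fell from 3.46 to 1.42.

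Of 21 genes of calcium entry, calcineurin and NFAT, 3 rose and 6 fell, with a median of -0.34. These were 14.3% and 28.6%, beside 10.3% and 12.1% of all genes. In this branch, Nfatc1 rose from 2.57 to 4.40 while Nfatc2 fell from 0.51 to -1.52 and Nfatc3 from 2.28 to 1.20. The calcium channel gene Orai1 rose by 1.27 and its sensor Stim1 fell by 1.84. Rcan1, a calcineurin inhibitor and NFAT target, rose by 1.60 and the catalytic subunit Ppp3cc fell by 2.53. Of 11 Irf and Batf factors 2 rose and 4 fell, with Irf4 (92.4-fold) and Irf8 (-2.05 to 0.23) higher and Irf1, Irf2, Irf7 and Irf9 lower, with changes of -2.20, -1.80, -2.77 and -2.07. Of 17 Ets factors 2 rose, 11.8% beside 10.3% of all genes, and 4 fell. Gabpb1 rose from 0.70 to 2.80, whereas Ets1 fell from 5.17 to 3.12 and Fli1 from 0.25 to -2.91. All 3 probes of Ets1 fell, by between 2.04 and 2.58.

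Myc, the factor that drives growth of activated T cells, went from 3.09 to 5.59, and its second probe rose by 2.79. Of its antagonists of the Mxd family, Mxd4, Mxi1 and Mxd1 fell, with changes of -2.61, -2.08 and -1.52. Mxd3, at -0.57, and Mnt of the same network, at 0.69, stayed within 2-fold. Max, the shared partner, changed by -0.11. In this network of 10 measured genes Myc alone rose past 2-fold, and Mxd4, Mxi1 and Mxd1 fell. These were 10% and 30%, beside 10.3% and 12.1% of all genes.

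**Figure D2:**
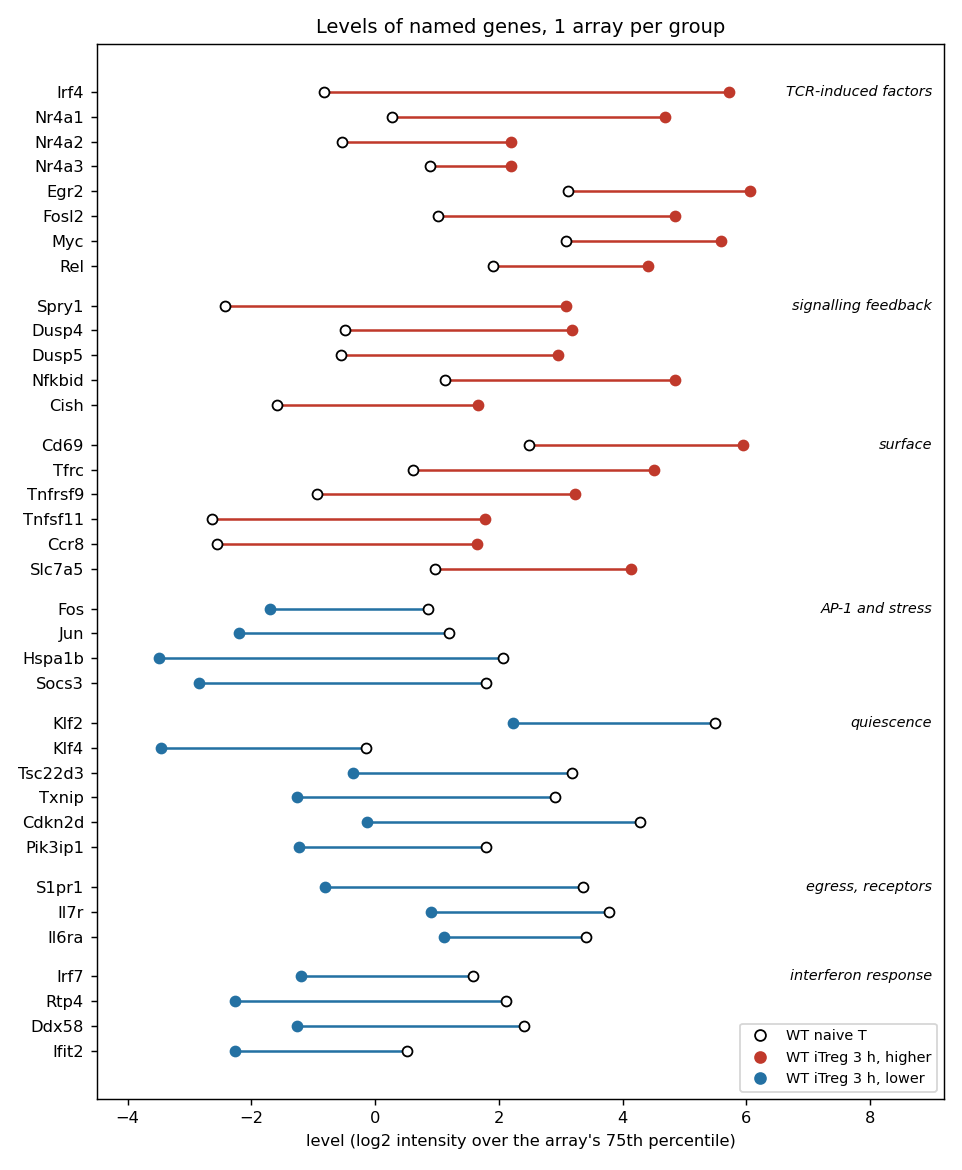
Levels of 36 named genes on the WT naive T array (open circles) and the WT iTreg 3 h array (filled, red for a rise and blue for a fall past 2-fold), as log2 intensity over the array's 75th percentile, 1 array per group. TCR-induced factors, the AP-1 gene Fosl2 among them, feedback genes and surface receptors lie to the right of their naive level. The AP-1 genes Fos and Jun and the quiescence, egress and interferon response genes lie to the left.

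Transcripts of costimulatory molecules mostly rose or stayed within 2-fold. Of 29 costimulatory and inhibitory receptors and ligands, 11 rose and 3 fell. Tnfrsf9 (4-1BB) went from -0.95 to 3.23, Tnfrsf4 (OX40) from 0.84 to 4.04, Tnfrsf18 (GITR) from 1.26 to 3.78, and Icos from 1.68 to 3.95. Tnfsf11, the ligand RANKL, went from -2.64 to 1.77. Inhibitory genes were among those that rose, with Pdcd1 (PD-1) at least 3.89 higher and Cd274 (PD-L1) up from -0.15 to 2.40. Ctla4, at -0.23 and -0.79, and Lag3, at -0.28 on both arrays, did not pass 2-fold. The receptor gene Slamf6 fell by 1.88 and Cd226 by 1.27.

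Of 17 activation markers 9 rose and 3 fell, with a median of 1.23. Besides Cd69 and Tfrc these included Cd83 (-3.72 to -0.09), Cd200, Icam1 and Cd5. Ly6a and Ly6c1, which interferon can induce, fell by 1.61 and 1.86. Cd44, whose protein marks antigen-experienced cells, changed by 0.89.

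Il2ra, the high-affinity IL-2 receptor chain CD25, depended on the probe. Its brightest probe, at chr2:11570205-11570264 on mm9, was at 2.44 in naive T and 2.96 at 3 h, within 2-fold. Its other probe, at chr2:11614744-11614803, went from -3.09 to 2.45, a rise of 5.54. The value by rule is the first, and these arrays cannot say which probe follows the transcript.

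Of 23 cytokine receptor chains, 11 fell, 47.8% beside 12.1% of all genes, and 1, Il1r2, rose (a bound), with a median of -0.87. Il7r, which receives the survival signal of naive cells, went from 3.77 to 0.90, Il6ra from 3.41 to 1.12 and Il18r1 from 0.52 to -3.36. Both chains of the IFN-γ receptor fell, Ifngr1 by 1.95 and Ifngr2 by 1.51, as did Ifnar2 by 1.39. The shared chain Il2rg, at 5.31 and 5.54, and Il2rb, at 2.39 and 3.08, did not pass 2-fold. Downstream, Stat4 fell by 1.77 and Jak1 by 1.32, and Jak2 rose by 2.21. Cish, a STAT5 target, rose from -1.59 to 1.67, with the kinases Pim1 and Pim3 up by 2.19 and 2.57.

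Of 31 cytokines and chemokines listed, 19 were well above background on at least 1 array. Of these 19, 7 rose, 36.8% beside 10.3% of all genes, and 2 fell. Besides Il2, Tnf went from 0.41 to 3.44, Lta from 0.87 to 3.19 and Mif from 3.57 to 5.72, with Lif at least 2.45 higher. Tgfb1 rose by 1.55. Il4, Il5, Il6, Il9, Il10, Ifng and Csf2 were not well above background on either array. Ccl5, a chemokine of memory and cytotoxic cells, fell from 2.38 to 0.21.

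Of 25 homing and adhesion genes 9 fell, 36.0% beside 12.1% of all genes, 3 rose and 13 stayed within 2-fold, with a median of -0.57. S1pr1, the receptor through which T cells leave lymph nodes, went from 3.36 to -0.81, an 18.1-fold fall. Itgb7 fell by 3.56, and the changes of S1pr4 and Selplg were -3.52 and -2.92. Ccr7 did not follow them, at 2.60 and 2.38, nor did Itgal, at 4.43 and 4.17, though 1 of the dimmer Itgal probes fell by 2.59. Ccr8 and Ccr4, chemokine receptors of Th2 and Treg cells, rose from -2.56 to 1.64 and from -2.02 to 0.01.

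Of 19 factors of naive T cells and quiescence, 10 fell and 2 rose, with a median of -1.06. Klf2, which drives S1pr1, went from 5.49 to 2.22, Klf3 from 2.57 to -0.46 and Tsc22d3, the glucocorticoid-induced leucine zipper, from 3.18 to -0.35. Foxo1 fell by 1.62, Lef1 by 1.61 and Tcf7 by 1.51. Bach2, a repressor of effector genes, rose from 3.17 to 4.28, and Satb1 was at 4.66 and 5.18. Brakes on PI3K and mTOR fell in 5 of 19 cases, led by Txnip, a glucose uptake inhibitor, from 2.90 to -1.25 and Pik3ip1 from 1.80 to -1.23. Sesn2, an amino acid sensor, rose by 1.64. The Gimap GTPases, which support survival of resting lymphocytes, fell in 4 of 8 cases, with Gimap7 lowest at 2.12 down and Gimap5 within 2-fold at 0.30 up.

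Of 25 G1 cyclins, CDKs, inhibitors and E2F factors, 8 rose and 9 fell, with a median of 0.01. Inhibitors went both ways. Cdkn2d (p19) went from 4.28 to -0.13 and Cdkn1b (p27) from 2.57 to -0.56, with -3.42 on the second Cdkn1b probe. Cdkn2a was at least 4.53 lower, and the pocket protein gene Rbl2 fell by 2.34. Cdkn2c and Cdkn1c rose by 1.15 and 1.06, and Cdkn1a (p21) was at least 1.26 higher. Cdk4 and Cdk6 rose by 1.52 and 1.57. Of 24 DNA replication genes, 2 rose (Orc6 by 1.25 and Pcna by 1.12), 8.33% beside 10.3% of all genes, and none fell. Their median was -0.02. Of 13 mitosis genes none rose and Mki67 fell by 1.43.

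Ribosome assembly factors, which process rRNA and build the subunits in the nucleolus, rose nearly throughout. Of 61 ribosome biogenesis factors, 56 rose and 0 fell, against 10.3% of all genes rising, with a median of 2.01 and quartiles of 1.61 and 2.45. Mrto4 went from 2.61 to 5.60, Nop2, an rRNA methyltransferase, from 0.26 to 3.22, Dhx33 from -2.36 to 0.59 and Gnl3 (nucleostemin) from 0.20 to 3.11. Abundant nucleolar proteins rose from a higher start, with Ncl at 4.48 and 6.91, Fbl at 4.81 and 6.53 and Npm1 at 5.81 and 6.97. The 5 that did not pass 2-fold were Bop1, Utp3, Utp18, Dhx37 and Utp6, although a second probe of Utp18 rose by 2.00 and one of Utp6 by 2.12. RNA polymerase subunits followed, with 13 of 27 higher and 0 lower, among them Polr1b of polymerase I, from -1.55 to 1.03, and Polr3d and Polr3g of polymerase III, up by 2.42 and 1.98.

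The structural proteins of the ribosome did not move with the assembly factors. Of 84 cytosolic ribosomal protein genes, 80 stayed within 2-fold with a median of -0.01. The 4 that rose were Rpl3l, Rps27l and Rpl7l1, which are paralogues and not the core proteins, and Rpl37, a bound on a probe not well above background in naive T. In the mitochondrial ribosome, 28 of 77 rose and 1 fell, with a median of 0.81, led by Mrps6 at 0.40 and 3.36.

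The promoters of these genes carried letters that the rule did not use. An E-box (CACGTG, the same on both strands) was in the window of 13 of 54 ribosome biogenesis genes (24.1%), and the Ets letters CCGGAAG on either strand in 23 (42.6%). Over all 27025 genes with a window the shares were 7.24% and 9.12%, and over the 14319 measured genes with a window 8.904% and 14.0%. Genes that rose past 2-fold held the E-box in 13.9% and the Ets letters in 19.1%, and genes that fell in 7.59% and 10.8%. Among genes that rose past 4-fold the shares were 14.4% and 14.9%, so that for the Ets letters the share there was close to that of all measured genes. The letters AAAGGTCA, the response element bound by Nr4a monomers, were in 1.13% of promoters of genes that rose, 1.27% of those that fell and 1.22% of those measured. The 250 bases before the start of Nop2, at chr6:125131633-125131882 of GRCm38.p6 on the plus strand, are shown because both motifs, in capitals and not overlapping, stand in them.
Nop2: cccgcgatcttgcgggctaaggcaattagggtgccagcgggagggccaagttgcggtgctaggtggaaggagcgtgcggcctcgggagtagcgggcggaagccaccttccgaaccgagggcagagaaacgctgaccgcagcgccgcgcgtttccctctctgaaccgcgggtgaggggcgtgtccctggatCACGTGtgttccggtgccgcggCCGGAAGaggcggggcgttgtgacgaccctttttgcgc

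Other parts of the protein synthesis apparatus had more rises than falls. Of 20 cytosolic aminoacyl-tRNA synthetases, which charge tRNAs, 18 rose and 0 fell, with a median of 1.72, from Nars at 0.66 and 3.27 to Qars at 0.25 and 0.36. Of 69 translation factors 26 rose and 4 fell. Eif4e, the cap-binding protein, rose by 1.79, Eif4a1 by 1.65 and Eif5a by 2.27. The name-based list also holds regulators, of which Eif4ebp1, an inhibitor of Eif4e, rose from -2.63 to 0.92 and the kinase genes Eif2ak2 and Eif2ak3 fell by 1.61 and 1.30. Elongation factors Eef1a1, at 6.65 and 6.49, and Eef2, at 6.74 and 6.40, stayed within 2-fold like the ribosomal proteins.

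All 8 subunits of the TRiC chaperonin, which folds actin and tubulin, rose, between 1.05 (Cct4) and 1.91 (Cct3). The chaperones Hspd1 (3.03 to 5.39), Hspa9 (2.26 to 4.19) and Hspa4 rose, while Hspa8 changed by 0.44 on its brightest probe and Hspa1a and Hspa1b fell. Proteasome genes rose in 17 of 46 cases, with Psmd1 highest at 1.80 and 3.93. The 3 that fell were the immunoproteasome subunits Psmb8, Psmb9 and Psmb10, with changes of -1.70, -2.71 and -1.45, and their constitutive counterparts Psmb5, Psmb6 and Psmb7 rose by 1.09, 1.16 and 1.39.

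Of 47 nucleoporins, importins and exportins, 16 rose and 0 fell, with Ipo4, Ipo5, Rcc1 and Ranbp1 up by between 2.40 and 2.69 and Ran from 4.08 to 6.08. The rise of Rcc1 was read by 1 of its 5 probes, the others changing by at most 0.68. Splicing proteins rose in 15 of 43 cases and fell in 0. Respiratory chain subunits rose in 10 of 76 cases, a share of 13.2% near that of all genes, with Cycs, cytochrome c, at 1.96 and 3.62.

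**Figure D3:**
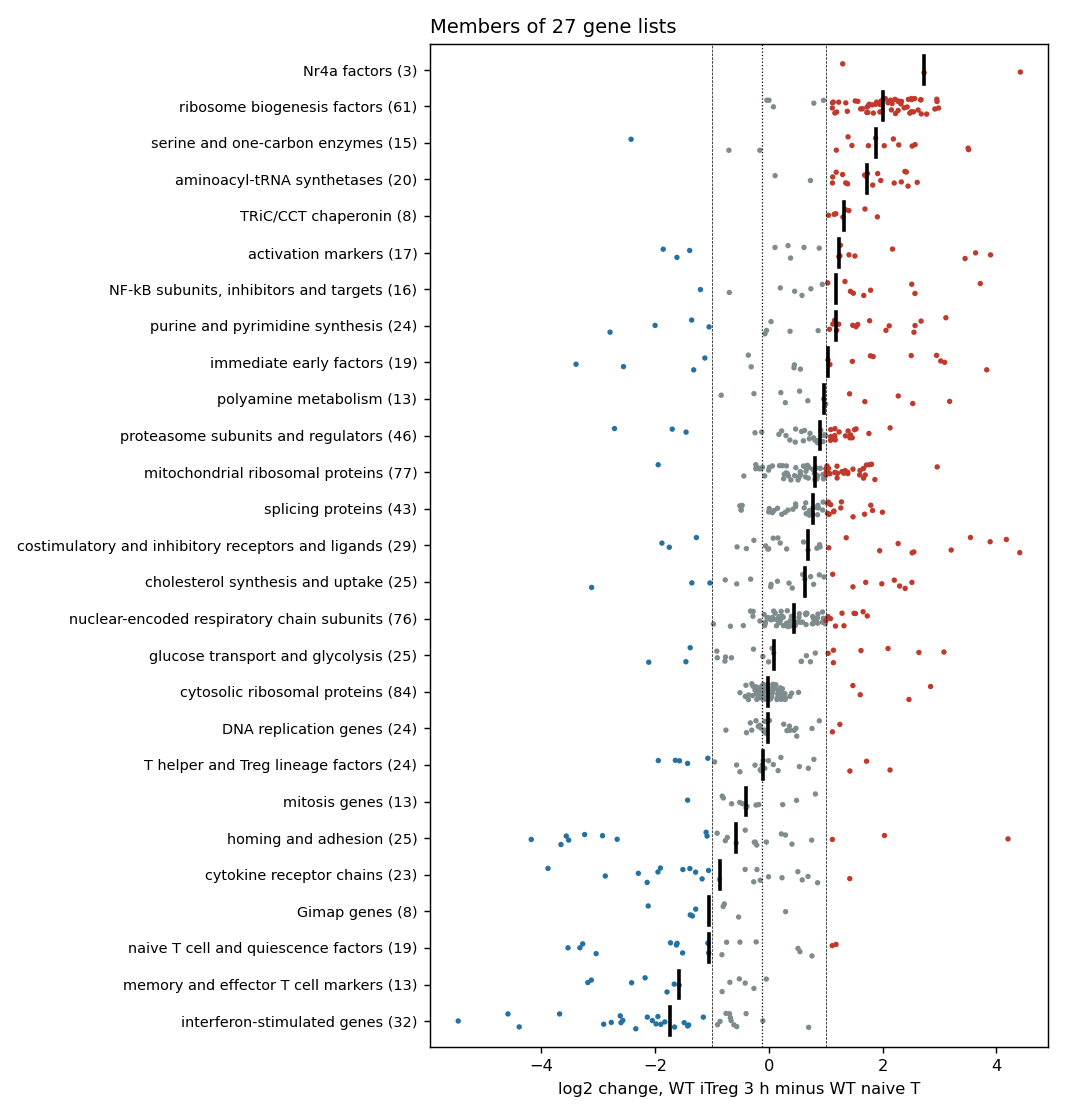
Log2 change from WT naive T to WT iTreg 3 h for every measured member of 27 gene lists (number of members in parentheses), ordered by median (black bar), red above and blue below 2-fold (dashed lines), with the median of all genes dotted at -0.12. Most ribosome biogenesis factors lie right of the upper 2-fold line, cytosolic ribosomal proteins lie near 0 and interferon-stimulated genes lie to the left.

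Enzymes that make the building blocks of growth rose in several pathways. Of 15 serine and one-carbon enzymes, 12 rose and 1 fell, with a median of 1.88. Shmt2 went from 0.99 to 4.50, Psat1 from 0.72 to 4.22 and Mthfd2 from 2.50 to 4.69, of which Shmt2 and Mthfd2 act in the mitochondrion. In nucleotide synthesis 15 of 24 rose and 4 fell, and Ctps, CTP synthase, went from -0.24 to 2.88 and Umps from 0.59 to 3.27. The second isoforms moved the other way, with Ctps2 down by 1.36 and Prps2 by 1.05, against a rise of 1.47 for Prps1. Rrm2, which serves DNA synthesis, was at least 2.79 lower.

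Polyamine genes rose in 5 of 13 cases and fell in 0, with Srm from 2.21 to 5.39 and Odc1, the rate-limiting enzyme, from 1.93 to 4.46. Amino acid transporters rose in 5 of 13 cases and fell in 0. Slc7a5, which brings in leucine, went from 0.97 to 4.14 and Slc7a1 from 1.63 to 4.39. Slc3a2, the partner chain of Slc7a5, changed by -0.25 on its brightest probe but rose by 2.33 and 1.65 on its other 2.

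Glycolysis changed gene by gene, with 7 of 25 higher and 3 lower. Hk2, hexokinase 2, was at least 3.08 higher, Slc16a1, a lactate carrier, went from 0.17 to 2.81 and Pgam1 from 3.53 to 5.62, while Ldha rose by 1.13. Slc2a1, the main glucose transporter of activated T cells, changed by 0.82, and Slc2a3 fell by 1.38. Pdk1 and Ldhb fell by 2.11 and 1.46. In cholesterol synthesis and uptake 8 of 25 genes rose and 3 fell, the former including Idi1 (3.14 to 5.66), Cyp51 and Sqle, and the efflux pumps Abca1 and Abcg1 fell by 1.35 and 3.11.

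Interferon-stimulated genes, which carry out antiviral defence, had the highest share of falls among the 64 gene lists. Of 32 measured, 21 fell and 0 rose, against 12.1% of all genes falling, with a median of -1.74. Rtp4 went from 2.12 to -2.26, Ddx58, which encodes the RNA sensor RIG-I, from 2.41 to -1.27 and Gbp4 from 1.14 to -1.76. Oas3 and Ifit3 were well above background in naive T only, at 1.36 and 0.42, and the bounds on their change at 3 h were -5.46 and -4.58, which for Oas3 is at least 44.0-fold lower. Isg15, at -0.07 and -0.73, and Zbp1, at 3.81 and 3.41, did not pass 2-fold. Antigen presentation genes fell in 5 of 16 cases, the transporters Tap1 and Tap2 among them, with changes of -1.89 and -1.12. The class I heavy chains H2-K1 and H2-D1 and B2m stayed within 2-fold.

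Of 21 of these genes with a promoter window, 15 (71.4%) held an interferon-stimulated response element (ISRE) match on either strand, against 1.95% of all genes with a window. Its members were listed as interferon-stimulated genes, so this share describes the list and tests nothing about the change at 3 h. The ISRE share was 3.94% for genes that fell past 2-fold, 6.36% for those that fell past 4-fold and 1.20% for genes that rose. The genes that fell include members of this list. The AP-1 letters TGANTCA were in 8 of the 21 and in 7.93% of all. The 250 bases before the start of Oas3, on the minus strand at chr5:120777660-120777909 of GRCm38.p6, are shown as the promoter of the largest fall in the list, with the ISRE and AP-1 matches in capitals.
Oas3: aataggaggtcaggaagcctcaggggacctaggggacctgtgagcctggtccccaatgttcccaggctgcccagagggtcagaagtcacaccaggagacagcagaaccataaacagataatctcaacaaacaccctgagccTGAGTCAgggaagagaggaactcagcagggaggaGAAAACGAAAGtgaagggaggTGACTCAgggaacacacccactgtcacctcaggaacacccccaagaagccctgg

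Lineage factors moved in both directions. Foxp3, the factor that defines Treg cells, was at 0.43 in naive T and 0.60 at 3 h. Of 24 lineage factors 3 rose (Bcl6, Hif1a and Runx2) and 5 fell, 12.5% and 20.8% beside 10.3% and 12.1% of all genes, with Gata3 from 2.17 to 0.74, Eomes by 1.64 and Prdm1 by 1.94. Tbx21 changed by 0.69. Of 11 Treg surface genes, Lrrc32, which presents latent TGF-β, rose by 1.09 and 3 fell, 27.3% of the list. In TGF-β signalling, Tgfbr1 rose by 1.62 on its brightest probe and by between 1.20 and 1.92 on its other 3, while Tgfbr2 and Tgfbr3 changed by -1.93 and -3.49. The repressors Tgif1, Tgif2 and Skil rose, the first 2 by 2.79 and 2.14, with the other 3 Tgif2 probes at no more than 0.46, and Smad7 changed by -0.98.

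Of 17 BCL2 family genes 5 rose and 3 fell. Bcl2a1d went from 0.77 to 5.02 and Bcl2l1 (Bcl-xL) from -0.34 to 3.05, with all 5 Bcl2l1 probes up by between 1.94 and 3.64. Bcl2 and Mcl1 changed by -0.44 and -0.50. The killers Bax and Bcl2l11 (Bim) rose by 2.11 and 1.73 and Bad fell by 2.06. Bcl2a1d and Bcl2a1c are near-identical paralogues whose probes can share signal. Kdm2b and Kdm6b, histone demethylases, rose by 3.36 and 2.89 and Dnmt3a by 1.78, and Tet1 fell by 2.42. Bhlhe40, a TCR-induced clock factor, was at least 3.35 higher. Vim, the intermediate filament, fell from 2.93 to 0.04, and Tuba1c rose from 3.62 to 6.52.

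Of 13 markers of memory and effector T cells with a change, 7 fell and 0 rose, with a median of -1.58, led by S100a4 (2.13 to -1.05), Ahnak (2.44 to -0.68) and S100a6 (1.76 to -0.65). Their summed level was 48.2 in naive T and 22.6 at 3 h, though the sort was for CD44low cells. Fewer cells of a kind and less RNA per cell cannot be told apart in such bulk samples, and the part of such cells in the fall of Ccl5, Eomes or Vim was not tested. Myeloid markers fell in 5 of 13 cases (38.5%), with Cd14 at least 3.83 lower. B cell and MHC class II markers fell in 2 of 12 (16.7%, beside 12.1% of all genes), Cd79b by 2.93. CD8 T and NK markers, which include Eomes, fell in 4 of 9 cases (44.4%). Erythroid and platelet markers fell in 2 of 6 (33.3%), and 0 rose in either of these lists.

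The remaining large falls were of genes outside the lists. Kbtbd11, a ubiquitin ligase adaptor, went from 4.90 to 0.19 with changes of -4.72 and -4.73 on its 2 probes, and Arl4c, a small GTPase, from 4.22 to -0.34 with changes of -4.55 and -4.56. Myo6, a myosin motor, went from 1.74 to -3.63. Armc9, Gm26637, Flt3l, Pglyrp2, Slx, Treml2, Fam111a, Abcg3, Arl15, Pdlim4 and Csprs fell, with changes from -4.72 to -4.08. The largest bounds were those of D330022H12Rik, at least 76.6-fold lower, Klhl13, Tmem52b, Slc9a3, 2810408B13Rik, Eya2, Syne2, Sh3bp1 and Cmpk2. Second probes of Arl15, Slc9a3 and Syne2 changed by -0.57, -0.70 and -0.55, within 2-fold, as did 2 of Pdlim4, at -0.16 and -0.86.

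The direction of change shifted with brightness. When the genes were ranked by mean level and cut into 10 equal bins, 6.26% rose and 12.96% fell in the dimmest bin, and 85.9% of the changes there are bounds. In bin 9, 17.6% rose and 8.79% fell, and in the brightest 13.9% rose and 5.11% fell. The share that rose thus passed the share that fell from bin 7 upward.

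**Figure D4:**
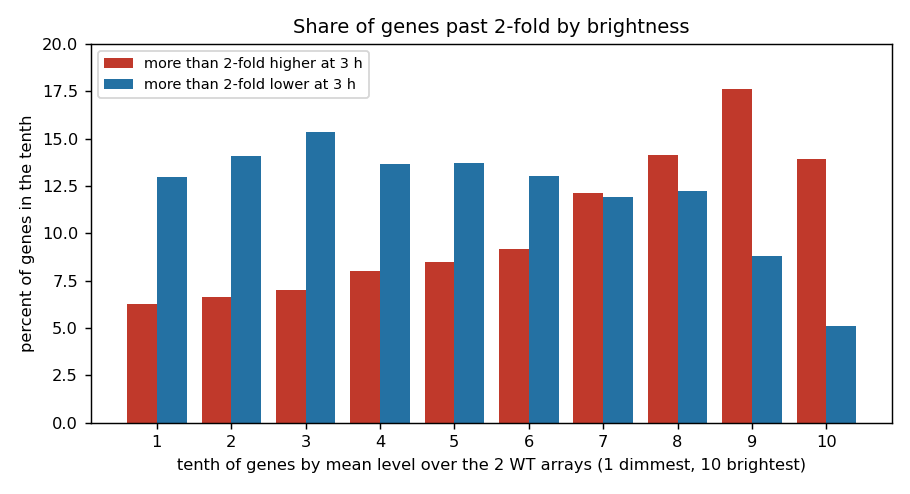
Percent of genes past 2-fold (vertical axis) in each of 10 bins of the 18205 genes by mean level over the 2 WT arrays (horizontal axis, 1 dimmest to 10 brightest), red for higher and blue for lower at 3 h. The share higher climbs from 6.26% to 17.6% in bin 9, and the share lower drops to 5.11% in the brightest.

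The very brightest probes changed little. The 140 genes above a level of 8 in naive T had a median change of -0.29 with quartiles of -0.33 and -0.23, and 1 of them (Arhgdib) passed 2-fold. The 15 brightest in naive T were Dennd4a, Pak4, Skint7, Sp110, Ms4a4c, Ubtf, Sgsh, Cyp2u1, Luc7l2, Spag7, Itsn1, Ulk3, Trim25, Hs3st2 and Arl6ip6, and 13 of them were also among the 15 brightest at 3 h, joined there by Timmdc1 and Plekhg3. Genes known from stem cells or neurons, Nanog, Scn8a and Oprm1, were among the 140. For 92 of these genes a dimmer probe was measured too, 163 probes in all, with a median level of -1.11 in naive T. These other probes ranged from -3.28 to 2.94, and 21 rose and 24 fell. Gramd1b rose by between 2.32 and 2.94 on its other 3 probes, Il15ra by 1.56 and 1.95, Furin, a protease that activates TGF-β1, by 1.62, and Irak2 by 1.01 and 1.17, while the brightest probe of each changed by -0.30 to -0.11. Intensities of different probes cannot be set against each other as amounts of RNA.

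Over the whole table, 7693 genes had at least 2 measured probes. Where the brightest probe rose past 2-fold, 61.3% of 1467 other probes did so too, 90.8% moved in the same direction and 1.64% fell past 2-fold. For genes that fell the shares were 59.9% of 1390, 91.3% and 0.863%. Where the brightest probe had risen past 4-fold, 75.8% of 293 other probes passed 2-fold the same way. The median SD between probes of a gene was 0.32. For repeated spots of 1 probe the median was 0.067 for a difference, a value that is larger among dim probes. In 29 genes probes well above background on both arrays passed 2-fold in opposite directions, the widest being Nup160, Pla2g6, Coq10b, Gsdme and Arl14ep. In Coq10b the probe at chr1:55110846-55110905 on mm9 fell by 1.90 while the brightest, at chr1:55129181-55129240, rose by 1.83. In Nup160 the probe at chr2:90532618-90532677 fell by 3.03 and the other 3 probes changed by between 0.80 and 1.43.

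**Figure D5:**
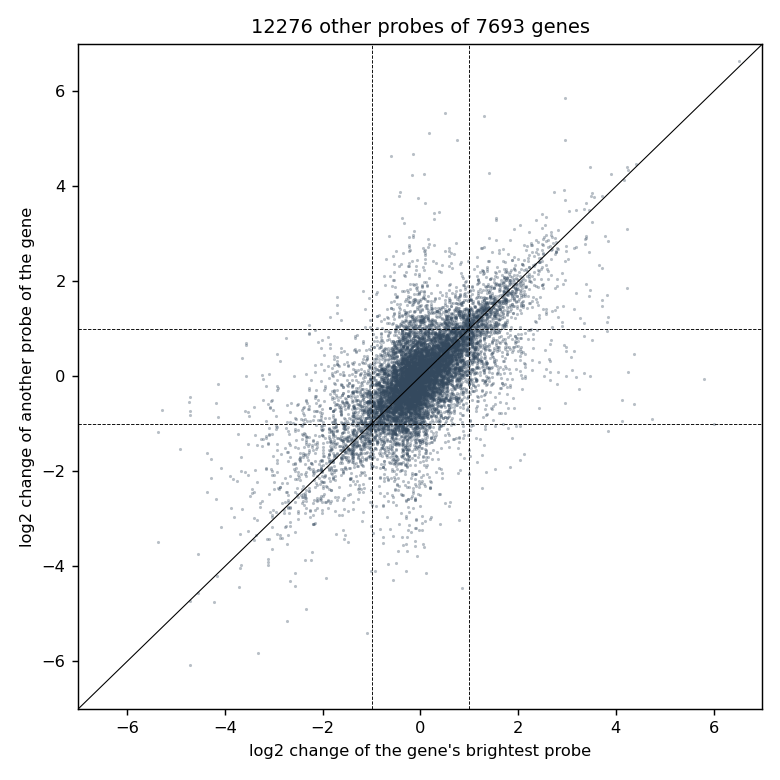
Log2 change from WT naive T to WT iTreg 3 h for the brightest probe of a gene (horizontal axis) and for each other probe of the same gene (vertical axis), 12276 other probes of 7693 genes, with dashed lines at 2-fold. Points cluster along the diagonal, and few lie in the corners where probes passed 2-fold in opposite directions.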

How the data were processed

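RNA of WT naive T and WT iTreg 3 h cells was measured on single-colour Agilent arrays, 1 array per group. The deposited scanner files give an intensity per spot as Agilent Feature Extraction writes it (version 11.5.1.1 per the submitters' processing notes), background-subtracted by the authors' scanner software and not normalized between arrays. The authors also deposited a log2 value table, which their methods describe as RMA from GeneSpring, and whose values matched log2 processed intensity minus each array's 75th percentile over all probes to within 0.05 for 99.9% of probes.

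From the intensities, control and outlier spots were left out, repeated spots averaged, and log2 intensity taken minus each array's 75th percentile over non-control spots. A probe counted as well above background where over 0.5 of its spots were. The brightest probe stood for a gene. Values not well above background were raised to the array's lowest well-above value where they lay below it. Probe coordinates are those of the files (mm9). Gene symbols (41700 probes by symbol, 1550 by accession, 587 by synonym, 12768 unnamed), promoters and the miRNA came from RefSeq GRCm38.p6. Genes were named by size of change (the 20 largest measured and 10 largest bounds each way), by level (the 15 brightest) and from the 64 lists. Members and lists were chosen with earlier results of these data known. Calls past 2-fold have no test, since 1 array per group gives no replicate error, and the number of arrays limits the precision. Alternatives were other scalings, background corrections, filters, thresholds and probe rules. Python 3.11.15, pandas 2.3.3, numpy 2.4.6, matplotlib 3.10.9, R 4.3.3 and limma 3.58.1 were used, and the calling steps were tested on simulated data.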

Additional observations from a re-analysis of the deposited data

How the results depend on the processing

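The counts moved most with the threshold, from 3401 higher and 4210 lower at 1.5-fold to 824 and 1001 at 3-fold and 451 and 619 at 4-fold. Normexp background correction with an offset of 50 left 846 genes higher and 818 lower, since the offset draws dim probes together. It left 6 of the gene list medians past 2-fold in place of 13, and 4 list medians changed sign. The median that shifted most was that of the interferon-stimulated genes, by 1.08. With this offset 45 of the 347 genes named no longer passed 2-fold. Of 347 genes named, 2 turned where both arrays were required, since another probe then stood for them, Ntn5 at -0.0581 and Saxo2 at -0.91. Without the filter and floor 3415 genes were lower. Other scalings, the deposited value table, the mean of a gene's probes, normexp with no offset and the requirement of both arrays kept both counts within 1.5 times, between 1596 and 2489 higher and between 1659 and 2605 lower. Leaving out probes above a level of 8, an alternative chosen after seeing the data, gave 1895 and 2213. Scaling to the spike-in probes was not run, because 2 of 10 were well above background in naive T and 3 at 3 h. No paired analysis was possible because each group has 1 array, and for the same reason no replicate could be left out.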

Other observations

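Gene families were also grouped by the first letters of their symbols, looked at after their values were seen and with no test. Those named here are examples picked from a longer list. Of families with at least 15 measured members, Timm genes of mitochondrial protein import rose in 10 of 15 cases and Trmt tRNA methyltransferases in 7 of 16. Snhg snoRNA host genes rose in 6 of 16 cases and Ddx RNA helicases in 12 of 37, and 10.3% of all genes rose. Phf genes fell in 7 of 23 cases, Klhl ubiquitin ligase adaptors in 8 of 31 and Trim genes in 12 of 53, and 12.1% of all genes fell.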
